A study of Mus musculus with 12 samples.

Results

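UDP-glucuronosyltransferases (UGTs) are enzymes of the endoplasmic reticulum, and 10 of their genes were examined in mouse liver: *Ugt1a1*, *Ugt1a5*, *Ugt1a6a* and *Ugt1a9* of the *Ugt1a* locus and *Ugt2b1*, *Ugt2b5*, *Ugt2b34*, *Ugt2b35*, *Ugt2b36* and *Ugt2b38* of the *Ugt2b* cluster. They were taken by symbol from a table of 24532 genes, all 10 were found there, and all 10 were among the 14038 genes with enough counts to be tested. The data are RNA-seq libraries of polyadenylated RNA from 12 livers of male C57BL/6 mice aged 10 to 12 weeks when the diets began, in 4 groups of 3 livers. WT mice carried the floxed *Ahr* allele without Cre, and *Ahr* HKO mice were *Ahr* fl/fl Alb-Cre littermates, in which the albumin promoter drives Cre and exon 2 of *Ahr* is removed in hepatocytes but not in other liver cells, so the floxed allele was common to all groups. Each genotype received for 5 weeks either a control liquid diet (control livers) or the Lieber-DeCarli diet with ethanol at 5% of the volume and 36% of the calories (ethanol livers). The comparisons ask how the diet changed the genes in each genotype, how the genotypes differed on each diet, and whether the diet effect differed between the genotypes.

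UGTs attach glucuronic acid from UDP-glucuronic acid to bilirubin, steroids, bile acids, phenols and drugs, which makes them water-soluble so that transporters can export them into bile or blood. The *Ugt1a* genes are alternative first exons of a single locus, each with its own promoter, spliced to a set of common exons, so that the first exon sets the substrate and the common exons bind the sugar nucleotide. The *Ugt2b* genes are separate genes in a cluster. Liver *Ugt* genes are known targets of the aryl hydrocarbon receptor (AhR), of the drug-sensing receptors CAR and PXR, and of NRF2.

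The splice junctions of the *Ugt1a* genes are shown because they bear on which reads can be told apart. In the GENCODE M21 annotation of GRCm38 (the build called mm10 in the study's notes), all *Ugt1a* rows lie on the plus strand of chromosome 1 and splice into the exon that starts at 88215044. Of the 8 *Ugt1a* genes in the table, 6 distinct ends of the own coding exon were found, and the start of the common exon was the same in all 8. *Ugt1a5* had the same end as *Ugt1a2*, and *Ugt1a6a* the same as *Ugt1a6b*, so these ends do not tell the genes of a pair apart. The last 30 bases of the own exon stand in lower case and the first 30 bases of the common exon in capitals.
*Ugt1a9*, chr1:88071649-88071678 joined to chr1:88215044-88215073: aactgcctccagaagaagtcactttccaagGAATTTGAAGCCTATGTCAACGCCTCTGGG
*Ugt1a6a*, chr1:88139302-88139331 joined to the same exon: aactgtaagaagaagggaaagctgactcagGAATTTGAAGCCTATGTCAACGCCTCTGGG
*Ugt1a5*, chr1:88166874-88166903 joined to the same exon: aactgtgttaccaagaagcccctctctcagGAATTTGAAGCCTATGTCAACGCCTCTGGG
*Ugt1a1*, chr1:88212842-88212871 joined to the same exon: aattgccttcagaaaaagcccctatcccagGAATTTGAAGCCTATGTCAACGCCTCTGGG

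The 4 later exons held 735 coding bases, and these were identical among the *Ugt1a* genes. Between the 4 *Ugt1a* genes examined, the own coding exons were 55.9% to 59.3% identical, whereas *Ugt1a6a* and its neighbour *Ugt1a6b* were 98.4% identical over the whole coding sequence. Of all 100-base windows of the GENCODE transcript, 57.2% in *Ugt1a1*, 58.5% in *Ugt1a9*, 63.1% in *Ugt1a5* and 71.4% in *Ugt1a6a* also occurred in another *Ugt* transcript. These GENCODE transcripts end at 88218997, whereas the RefSeq genes end at 88220002. If the counted transcripts reached the RefSeq end, more of each would be common, and these shares would be too low. The sources used here do not say how reads from such windows were divided among genes, so the value of any single *Ugt1a* gene is uncertain. The sum over the locus depends on it only where such reads were dropped or counted more than once, and is given beside the single genes.

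The *Ugt2b* genes share less sequence. The coding sequences of the 6 genes were 72.0% to 97.0% identical, and *Ugt2b1*, *Ugt2b35* and *Ugt2b36* had no 100-base window in common with another *Ugt* transcript. *Ugt2b34* had 0.407% of such windows. *Ugt2b5* and *Ugt2b38*, the closest pair, differed at 47 of 1590 coding bases, and 24.2% of the windows of *Ugt2b38* also lay in *Ugt2b5*. A second neighbour of *Ugt2b38* is *Ugt2b37*, which differed from it at 94 of 1590 coding bases, with 1.06% of windows in common. Because the counts of these 2 genes came to be nearly equal in a single group, a stretch of the pair is shown. It spans coding bases 480 to 539, counted from the start codon, and was picked for holding the most differences of any gapless stretch of 60 bases. Over the whole coding sequence the pair is more alike. The 12 bases that differ are in capitals.
*Ugt2b37*: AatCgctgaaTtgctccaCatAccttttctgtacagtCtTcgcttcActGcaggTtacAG
*Ugt2b38*: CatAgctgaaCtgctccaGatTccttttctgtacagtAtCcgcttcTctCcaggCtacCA

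Each *Ugt1a* gene has its own promoter, and the promoters of *Ugt1a9* and *Ugt1a5* are shown, the first because this gene rose most with ethanol and the second because it held the one match to a searched motif. The sequences are those of RefSeq on GRCm38.p6, 250 bases up to the base before the start site, 5′ to 3′, with matches to a searched motif in capitals. In the search, the window ran from 250 bases before to 50 after the start site, both strands were read, and all 10 genes had an entry.
*Ugt1a9*, chr1:88070529-88070778, plus strand: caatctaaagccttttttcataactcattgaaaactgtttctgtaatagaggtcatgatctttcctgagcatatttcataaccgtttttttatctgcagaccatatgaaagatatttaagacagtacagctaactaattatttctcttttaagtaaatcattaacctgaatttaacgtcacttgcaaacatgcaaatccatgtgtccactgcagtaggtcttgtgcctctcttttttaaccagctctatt
*Ugt1a5*, chr1:88165762-88166011, plus strand: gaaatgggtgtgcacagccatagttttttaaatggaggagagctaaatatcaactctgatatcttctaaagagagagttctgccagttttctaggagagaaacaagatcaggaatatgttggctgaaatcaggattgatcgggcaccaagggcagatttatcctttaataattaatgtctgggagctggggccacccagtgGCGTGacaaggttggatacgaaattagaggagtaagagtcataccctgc

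The core to which AhR binds, GCGTG, was found in 1 of the 10 promoters, that of *Ugt1a5*, with its first base 49 bases before the start site, against 32.4% of 32851 mouse promoters of the same length. The antioxidant response element core of NRF2, TGACNNNGC, was in 0 of 10, against 12.4%. A match is a description of letters in this window and marks no bound site.

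Levels are given first as CPM, read counts relative to the library total. Between 46306518 and 74336255 reads were counted on genes per library. *Alb* was read at 47282 to 90568 CPM in every liver, and no gene in the marker lists of hepatocytes, cholangiocytes, Kupffer cells and leukocytes, stellate cells or endothelial cells was at 0 in any library. *Ass1*, a urea cycle gene that hepatocytes are known to express strongly, was read at 1.14 to 4.94 CPM. *Ahr* was read at 16.6 to 30.5 CPM in livers labelled WT and at 24.7 to 65.5 CPM in livers labelled *Ahr* HKO, which goes against the label, but the floxed exon is 188 of the 5548 transcript bases (3.39%), so counts over the whole gene do not check the deletion. *Cyp1a2*, a target of AhR, was at 398 to 617 CPM in WT and at 90.7 to 258 CPM in *Ahr* HKO control livers. In ethanol livers it was at 992 to 1212 CPM in WT and at 629 to 684 CPM in *Ahr* HKO. *Cyp1a1*, also a target of AhR, went the other way on the control diet, at 0.204 to 0.349 CPM in WT and 0.444 to 0.898 CPM in *Ahr* HKO. The library totals behind CPM were scaled by TMM factors, fold changes (FCs) are from the quasi-likelihood test of edgeR, and a gene passed when its adjusted *P* was under 0.05 and its FC was above 1.5. The adjusted *P* values set a difference between groups against the spread between livers, with 3 livers in a group. In whole liver a smaller number of cells of a type and less RNA per cell cannot be told apart.

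Levels of different genes were compared by FPKM, which the authors scaled to transcript length. *Ugt2b5* had the highest mean level of the 10 genes in each group, from 138 ± 5.23 FPKM in *Ahr* HKO control livers to 430 ± 82.4 FPKM in WT ethanol livers (SD, n = 3), and *Ugt2b36* came next in each group. Their ranges overlapped in the WT control livers and were apart in the other 3 groups. *Ugt2b1*, *Ugt2b34* and *Ugt1a1* took places 3 to 5 in all 4 groups, in changing order. In WT control livers they stood at 110 ± 21.1, 94.5 ± 6.52 and 88.3 ± 16.7 FPKM, with overlap between neighbours. *Ugt1a5* and *Ugt1a9* were the lowest on the control diet, at 6.94 ± 0.989 and 5.04 ± 1.73 FPKM in WT and at 8.32 ± 3.19 and 3.95 ± 2.23 FPKM in *Ahr* HKO, again with overlapping ranges. On the ethanol diet *Ugt1a9* moved from place 10 to place 7 in WT (73.0 ± 26.4 FPKM) and to place 8 in *Ahr* HKO (30.2 ± 12.4 FPKM), where its range overlapped those of both neighbours.

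**Figure D1:**
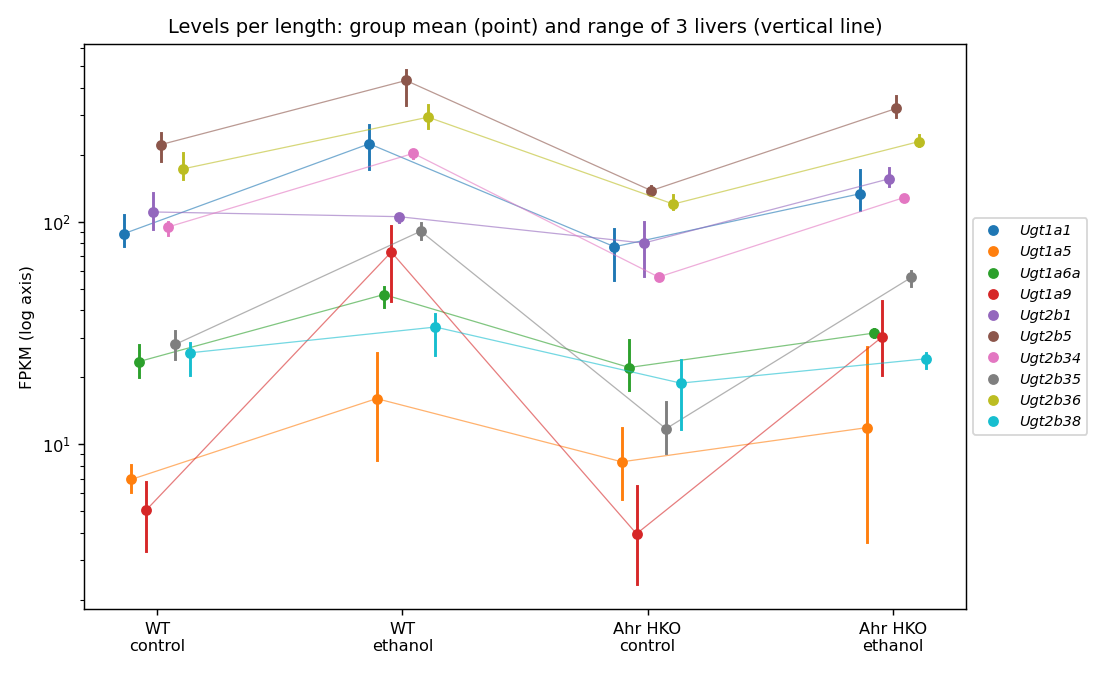
Mean level per length in FPKM (points, log axis) of each of the 10 genes in the 4 groups, with vertical lines from the lowest to the highest of 3 livers. *Ugt2b5* lies at the top in all 4 groups, and *Ugt1a9* lies at the bottom on the control diet, with 5.04 FPKM in WT and 3.95 FPKM in *Ahr* HKO.

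Ethanol was first compared with the control diet in WT livers. Of the 10 genes, 7 rose and none fell, whereas 6.76% of all tested genes passed, 3.36% upwards and 3.4% downwards. No member fell at an unadjusted *P* under 0.05 or in DESeq2 either. The median log2 FC of the 10 genes was 0.89, against 0.03 over all tested genes. The 3 that did not pass were *Ugt1a5*, *Ugt2b1* and *Ugt2b38*. For 7 of the 10, those that rose, the CPM of the groups did not overlap, which was so for 32.9% of all tested genes.

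The largest rise was that of *Ugt1a9* (Entrez 394434, chr1:88070779-88220002), whose human counterpart conjugates bulky phenols such as the anaesthetic propofol. It was read at 22.9, 17.5 and 11.2 CPM in WT control livers and at 257, 269.6 and 134 CPM in WT ethanol livers. The lowest ethanol liver was far above the highest control liver. This was a 12.9-fold rise (log2 FC 3.69, SE 0.37, adjusted *P* = 0.00305).

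*Ugt1a1* (Entrez 394436, chr1:88211959-88220002), the enzyme that conjugates bilirubin, was read at 366, 276 and 263 CPM in control and at 883, 639 and 529.9 CPM in ethanol livers, which is 1.19 in log2 FC (SE 0.22, adjusted *P* = 0.0201). *Ugt1a6a* (Entrez 94284, chr1:88134809-88220002), which conjugates small planar phenols, was read at 97.0, 79.9 and 69.4 CPM in control and at 168, 142 and 129.5 CPM in ethanol livers, which is 0.85 in log2 FC (SE 0.15, adjusted *P* = 0.0199). Both genes were higher in every ethanol liver than in any control liver. Their calls rested on the control livers: without WT control replicate 2 the adjusted *P* values were 0.0822 for *Ugt1a1* and 0.08 for *Ugt1a6a*, and without replicate 3 they were 0.0754 and 0.0651. *Ugt1a5* (Entrez 394433, chr1:88166012-88220002) was read at 20.7, 23.0 and 27.1 CPM in control and at 82.3, 39.5 and 25.8 CPM in ethanol livers. The groups overlapped, since ethanol replicate 3 lay within the control range, and the log2 FC of 1.07 had a 95% interval of 0.17 to 1.97 (adjusted *P* = 0.129). It passed without that liver (log2 FC 1.38, adjusted *P* = 0.0454) and in DESeq2 (adjusted *P* = 0.0246).

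In the *Ugt2b* cluster, whose enzymes conjugate steroids, bile acids and drugs, *Ugt2b35* (Entrez 243085, chr5:87000860-87013274, plus strand) rose most. It was read at 114, 101 and 84.8 CPM in control and at 333, 247 and 284 CPM in ethanol livers, which is 1.54 in log2 FC (SE 0.15, adjusted *P* = 0.00305). *Ugt2b34* (Entrez 100727, chr5:86889770-86906937, minus strand) was read at 310.3, 326 and 279.7 CPM in control and at 592, 559 and 594 CPM in ethanol livers, which is 0.94 in log2 FC (SE 0.10, adjusted *P* = 0.00438). The 3 ethanol livers lay close together for *Ugt2b34* and apart from the control livers for both genes. Together with *Ugt1a9* these were the genes whose calls survived the omission of any of the 6 livers.

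*Ugt2b5* (Entrez 22238, chr5:87124946-87140340, minus strand) was read at 500.1, 463 and 371 CPM in control and at 637, 790.1 and 864 CPM in ethanol livers, which is 0.79 in log2 FC (SE 0.17, adjusted *P* = 0.0315). *Ugt2b36* (Entrez 231396, chr5:87065927-87092555, minus strand) was read at 406, 321 and 307 CPM in control and at 497, 554 and 515 CPM in ethanol livers, which is 0.61 in log2 FC (SE 0.14, adjusted *P* = 0.0377). The groups did not overlap for either gene. With 1 liver omitted, each failed in 5 of 6 cases, with adjusted *P* values of up to 0.0972 and 0.134. They were also lost in limma on quantile-normalized log2(FPKM + 1), at 0.0753 and 0.088, and with the replicate number as a block, at 0.0901 and 0.0885.

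*Ugt2b1* (Entrez 71773, chr5:86916639-86926503, minus strand) was read at 359, 285 and 249 CPM in control and at 255, 242 and 261 CPM in ethanol livers of WT mice. The groups overlapped, and the log2 FC of -0.23 had a 95% interval of -0.57 to 0.11 (adjusted *P* = 0.368). *Ugt2b38* (Entrez 100559, chr5:87409939-87424203, minus strand) was read at 56.3, 57.8 and 40.8 CPM in control and at 47.8, 63.8 and 66.9 CPM in ethanol livers, again with overlap, and its log2 FC of 0.22 had an interval of -0.21 to 0.64 (adjusted *P* = 0.491).

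**Figure D2:**
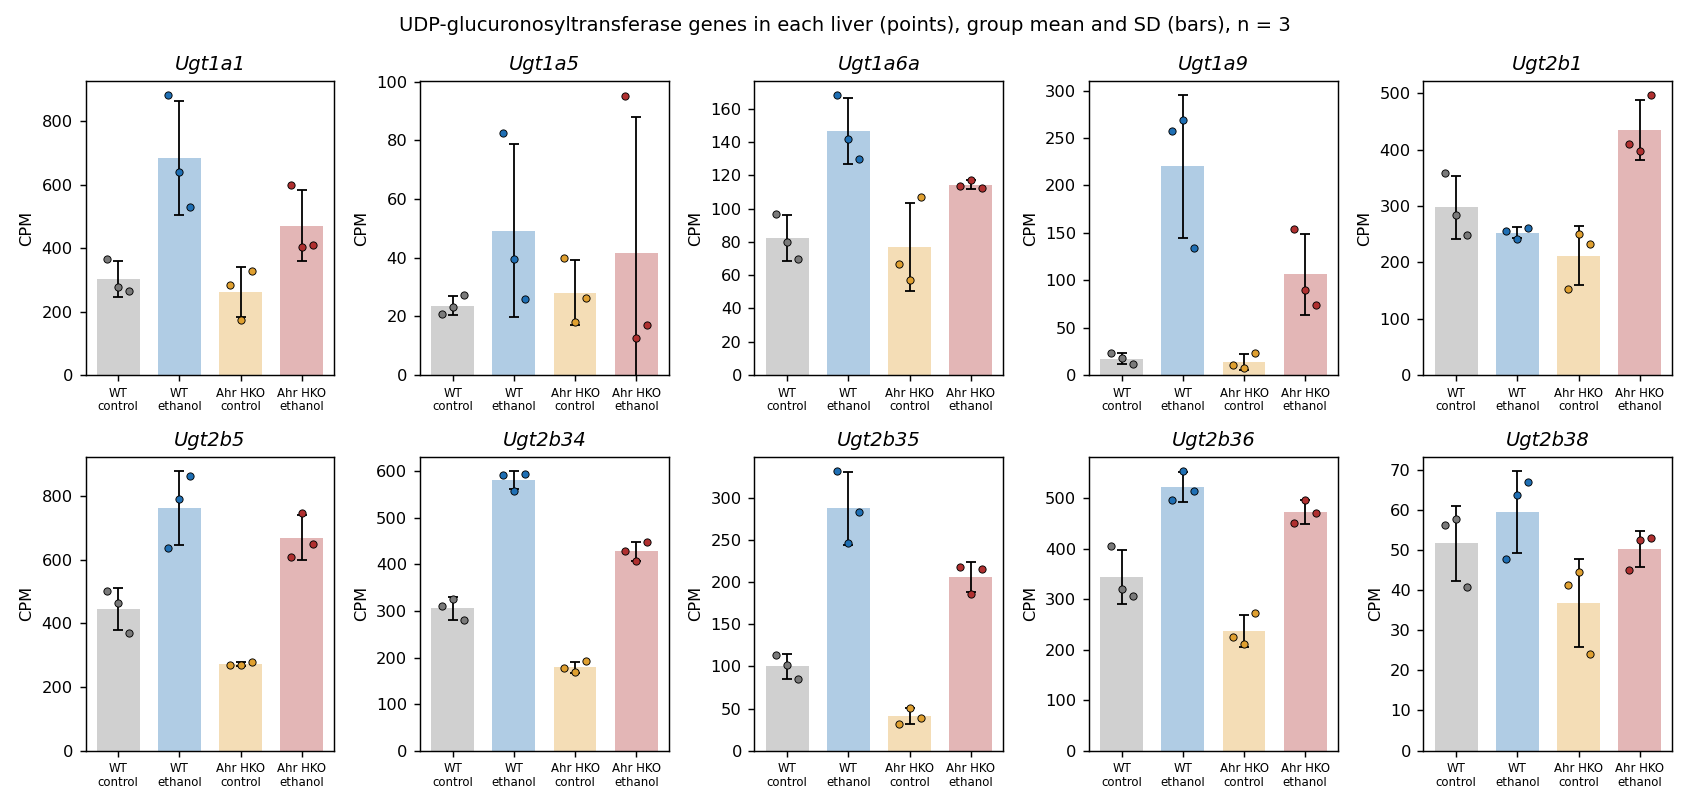
CPM of each of the 10 genes in each of the 12 livers (points), with the mean (bars) and SD (error bars) of 3 livers per group and a separate linear axis from 0 for each gene. *Ugt1a9* goes from 11.2 to 22.9 CPM in WT control livers to 134 to 269.6 CPM in WT ethanol livers, and the SD of *Ugt1a5* in *Ahr* HKO ethanol livers reaches below the axis, because a single liver was at 95.2 CPM.

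Among markers of liver cell types, those that passed in this WT comparison were *Tat* and *Apoa1* of the 6 hepatocyte genes, higher and lower, and *Lrat* of the 6 stellate cell genes, higher. None of the 5 cholangiocyte, 8 Kupffer cell and leukocyte or 5 endothelial genes passed in edgeR. At an unadjusted *P* under 0.05 this was 1, 0 and 0, and in DESeq2 it was also 1, 0 and 0. The summed hepatocyte markers ranged from 73458 to 84429 CPM in control and from 79111 to 108747 CPM in ethanol livers, and the summed stellate cell markers from 208 to 286 and from 301 to 344 CPM. Their part in the rise of the *Ugt* genes was not tested.

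The same diets were compared in *Ahr* HKO livers. Of the 10 genes, 6 rose and none fell, whereas 22% of all tested genes passed, 10.3% upwards and 11.7% downwards. No member fell at an unadjusted *P* under 0.05 or in DESeq2. The median log2 FC was 1.02, against -0.02 over all tested genes. The CPM of the groups did not overlap for 9 of the 10 genes, against 49.8% of all tested genes, with *Ugt1a5* as the exception. The 6 genes that rose also passed with any of the 6 livers omitted.

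*Ugt1a9* was again the gene that rose most, from 10.1, 7.49 and 23.0 CPM in *Ahr* HKO control livers to 154, 89.9 and 74.2 CPM in *Ahr* HKO ethanol livers, which is 2.97 in log2 FC (SE 0.48, adjusted *P* = 0.00595) or 7.83-fold. The other 3 *Ugt1a* genes did not pass. *Ugt1a1* was read at 284, 175 and 327 CPM in control and at 600.0, 405 and 408 CPM in ethanol livers, and *Ugt1a6a* at 66.4, 57.3 and 107 CPM in control and at 113, 117 and 112 CPM in ethanol livers. Every ethanol liver was higher than every control liver for both genes, though control replicate 3 of *Ugt1a6a* came close to the ethanol livers. The log2 FCs were 0.84 (95% interval 0.21 to 1.48, adjusted *P* = 0.0519) and 0.57 (0.02 to 1.12, adjusted *P* = 0.103), and without control replicate 3 both genes passed, with log2 FCs of 1.04 and 0.89 (adjusted *P* = 0.0394 and 0.00582). In that replicate the near-identical neighbour *Ugt1a6b* had 0.969 times the counts of *Ugt1a6a*, against 1.84 to 3.12 times in the other livers. Summed with *Ugt1a6b*, a pair chosen after the data were seen, *Ugt1a6a* passed (log2 FC 0.98, adjusted *P* = 0.00264). *Ugt1a1* also passed in DESeq2 (adjusted *P* = 0.00648), with upper-quartile scaling (0.0421), with at least 10 counts asked of every library (0.0442) and in a single fit of all libraries (0.0274). *Ugt1a5* was read at 39.8, 17.9 and 26.3 CPM in control and at 95.2, 12.5 and 16.9 CPM in ethanol livers. Its log2 FC of 0.57 had an interval of -1.19 to 2.32 (adjusted *P* = 0.591) and turned to -0.93 (adjusted *P* = 0.0977) without ethanol replicate 1, the liver at 95.2 CPM.

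*Ugt2b35* was read at 32.2, 51.0 and 39.1 CPM in *Ahr* HKO control and at 218, 186 and 215 CPM in *Ahr* HKO ethanol livers, which is 2.34 in log2 FC (SE 0.18, adjusted *P* = 0.00127) or 5.08-fold. *Ugt2b5* was read at 268, 269 and 279 CPM in control and at 609.7, 748 and 649 CPM in ethanol livers, which is 1.30 in log2 FC (SE 0.13, adjusted *P* = 0.0016). *Ugt2b34* was read at 177, 169 and 192 CPM in control and at 429, 408 and 449 CPM in ethanol livers, which is 1.26 in log2 FC (SE 0.11, adjusted *P* = 0.00147). The control livers lay close together for *Ugt2b5* and *Ugt2b34* and ranged from 32.2 to 51.0 CPM for *Ugt2b35*. For these 3 genes they lay far below the ethanol livers.

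*Ugt2b1*, which had not passed in WT, was read at 152, 251 and 233 CPM in *Ahr* HKO control and at 410.2, 398 and 497 CPM in *Ahr* HKO ethanol livers, which is 1.04 in log2 FC (SE 0.20, adjusted *P* = 0.0103). *Ugt2b36* was read at 226, 212 and 272 CPM in control and at 450.3, 497 and 472 CPM in ethanol livers, which is 1.00 in log2 FC (SE 0.14, adjusted *P* = 0.00382). Neither gene overlapped between the diets. *Ugt2b38* was read at 41.3, 44.6 and 24.2 CPM in control and at 45.0, 52.5 and 53.0 CPM in ethanol livers, where the lowest ethanol liver was just above the highest control liver, and its log2 FC of 0.45 had an interval of -0.05 to 0.96 (adjusted *P* = 0.148).

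Markers of other cells moved with this comparison. Of the 8 Kupffer cell and leukocyte genes, 6 fell in ethanol livers, and their summed level was 302 to 764 CPM in *Ahr* HKO control and 180 to 222 CPM in *Ahr* HKO ethanol livers. *Stab2* and *Pecam1* of the 5 endothelial genes and *Epcam* of the 5 cholangiocyte genes fell, whereas *Ttr* and *Ass1* of the 6 hepatocyte genes and *Des* of the 6 stellate cell genes rose. The summed endothelial markers were at 208 to 231 CPM in control and 146 to 164 CPM in ethanol livers, the summed cholangiocyte markers at 44.5 to 476 and 37.1 to 67.1 CPM, the summed hepatocyte markers at 66549 to 106008 and 98020 to 106712 CPM, and the summed stellate cell markers at 202 to 216 and 225 to 270.1 CPM. The part of these cells in the rise of the *Ugt* genes was not tested.

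The genotypes were then compared on the control diet. Of the 10 genes, 3 were lower in *Ahr* HKO livers and none was higher, whereas 19.9% of all tested genes passed, 10.1% as lower and 9.77% as higher. No member was higher at an unadjusted *P* under 0.05 or in DESeq2. The median log2 FC was -0.49, against 0.00 over all tested genes. All 3 were *Ugt2b* genes, and their calls survived the omission of any of the 6 livers. The control livers of *Ahr* HKO mice enter both this comparison and that of the diets in *Ahr* HKO mice, and the WT control livers enter both this and the WT diet comparison, so these results are not independent of each other.

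*Ugt2b35*, with the CPM of each liver given above, differed most, 2.45-fold (log2 FC -1.29, SE 0.19, adjusted *P* = 0.00355). *Ugt2b34*, with means of 305 CPM in WT and 179 CPM in *Ahr* HKO, followed (log2 FC -0.76, SE 0.11, adjusted *P* = 0.0036). *Ugt2b5* had means of 445 and 272 CPM (log2 FC -0.71, SE 0.14, adjusted *P* = 0.00895). For these 3 genes and for *Ugt2b36* the CPM of the genotypes did not overlap, which was so for 47.3% of all tested genes. *Ugt2b36* had a log2 FC of -0.54 (SE 0.16) with an adjusted *P* value of 0.0385, but its 1.45-fold difference was under the minimum of 1.5. It passed without *Ahr* HKO control replicate 3 (log2 FC -0.66, adjusted *P* = 0.0248) and with upper-quartile scaling (log2 FC -0.61, adjusted *P* = 0.0195).

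*Ugt2b1* and *Ugt2b38* had log2 FCs of -0.49 and -0.49, with 95% intervals that reached 0.03 and 0.07 (adjusted *P* = 0.135 and 0.164). None of the 4 *Ugt1a* genes passed on the control diet, and their CPM overlapped between the genotypes. The log2 FC was -0.20 for *Ugt1a1* (interval -0.77 to 0.38, adjusted *P* = 0.584), 0.25 for *Ugt1a5* (-0.38 to 0.88, adjusted *P* = 0.521), -0.09 for *Ugt1a6a* (-0.67 to 0.49, adjusted *P* = 0.817) and -0.34 for *Ugt1a9* (-1.36 to 0.68, adjusted *P* = 0.595). The sign for *Ugt1a1*, *Ugt1a5* and *Ugt1a6a* turned when single livers were left out. Summed with its near-identical neighbour *Ugt1a6b*, *Ugt1a6a* was lower in *Ahr* HKO, at -0.43 in log2 FC (SE 0.11, adjusted *P* = 0.0251). That is under the minimum FC, and the pair was chosen after the data were seen. In this comparison *Epcam* of the 5 cholangiocyte genes, *Pecam1* of the 5 endothelial genes and *Tat* of the 6 hepatocyte genes were higher in *Ahr* HKO, and *Cd79a* of the 8 Kupffer cell and leukocyte genes and *Col3a1* of the 6 stellate cell genes were lower. *Ahr* HKO control replicate 1 held the highest summed cholangiocyte markers, 476 CPM, most of it from *Spp1* at 462 CPM. *Epcam* was read at 7.71, 4.86 and 2.68 CPM in *Ahr* HKO and at 0.720 to 1.35 CPM in WT control livers. Of the 8 Kupffer cell and leukocyte genes, 2 were higher and 1 lower at an unadjusted *P* under 0.05 and in DESeq2, the median log2 FC of the list was 0.34, and their summed level was 327 to 410.3 CPM in WT and 302 to 764 CPM in *Ahr* HKO. The summed cholangiocyte markers were at 40.3 to 132 and 44.5 to 476 CPM, the summed endothelial markers at 201 to 251 and 208 to 231 CPM, the summed stellate cell markers at 208 to 286 and 202 to 216 CPM, and the summed hepatocyte markers at 73458 to 84429 and 66549 to 106008 CPM. The part of these markers in the differences of the *Ugt2b* genes was not tested.

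On the ethanol diet, 1 of the 10 genes differed between the genotypes, *Ugt2b1*, which was higher in *Ahr* HKO livers, whereas 1.06% of all tested genes passed, 0.684% as higher and 0.378% as lower. At an unadjusted *P* under 0.05, 5 members were lower, a level at which the share of all genes was not taken. DESeq2 called 1 of them, and 627 of all 14038 tested genes, as lower. The median log2 FC of the 10 genes was -0.30, against -0.01 over all tested genes. *Ugt2b1* had a mean of 252 CPM in WT ethanol livers and of 435 CPM in *Ahr* HKO ethanol livers, without overlap, which is 0.79 in log2 FC (SE 0.12, adjusted *P* = 0.0383). This call failed whichever of the 6 livers was omitted, with adjusted *P* values from 0.0567 to 0.142 and log2 FCs from 0.68 to 0.84. It also failed in limma on FPKM, at 0.63 with quantile normalization (adjusted *P* = 0.0613) and, on log2(FPKM + 1) as deposited, at 0.56 (adjusted *P* = 0.0391), which is under the minimum FC.

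The other 9 genes did not pass on the ethanol diet. *Ugt1a9* had a log2 FC of -1.06 with an interval of -1.87 to -0.24 (adjusted *P* = 0.155), and in DESeq2 it passed (adjusted *P* = 0.0245). The CPM overlapped, since the WT liver at 134 CPM lay below the *Ahr* HKO liver at 154 CPM. *Ugt2b34* and *Ugt2b35* had log2 FCs of -0.44 (interval -0.66 to -0.22, adjusted *P* = 0.0764) and -0.48 (-0.78 to -0.17, adjusted *P* = 0.113), and both passed in limma on log2(FPKM + 1) as deposited (adjusted *P* = 0.025 and 0.0332), a scale on which the median of all genes was shifted to -0.13. *Ugt1a1* was at -0.54, *Ugt1a6a* at -0.36, *Ugt1a5* at -0.25, *Ugt2b38* at -0.25, *Ugt2b5* at -0.19 and *Ugt2b36* at -0.14 in log2 FC. Groups did not overlap for 5 of the 10 genes, *Ugt1a6a*, *Ugt2b1*, *Ugt2b34*, *Ugt2b35* and *Ugt2b36*, against 27.9% of all tested genes. For *Ugt2b36* they all but touched, with the lowest WT liver at 496.9 CPM and the highest *Ahr* HKO liver at 496.7 CPM. Among the markers *Tat* of the hepatocyte list was higher in *Ahr* HKO and no marker of the other lists passed in edgeR. Of the 8 Kupffer cell and leukocyte genes, 6 were lower at an unadjusted *P* under 0.05 and DESeq2 called 4, with summed Kupffer cell and leukocyte markers of 289 to 751 CPM in WT and 180 to 222 CPM in *Ahr* HKO ethanol livers. Of the stellate cell genes 3 were lower at that level and DESeq2 called 2, of the endothelial genes 1 was lower and DESeq2 called 0, and of the cholangiocyte genes 1 was higher and DESeq2 called 1. The part of these cells was not tested.

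**Figure D3:**
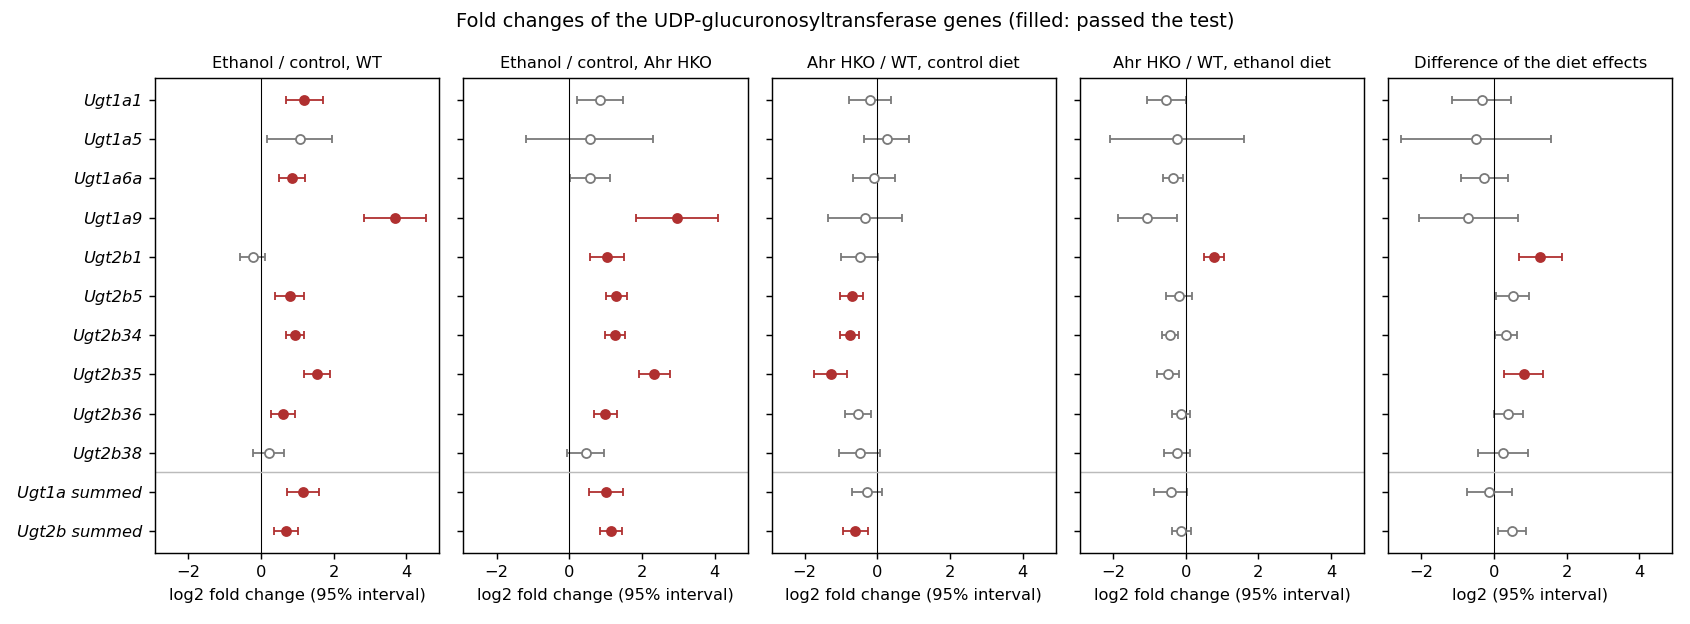
Log2 FC (points) with its 95% interval (lines) of the 10 genes and of the summed counts of each locus in the 4 comparisons, and the difference of the 2 diet effects, *Ahr* HKO minus WT, on a common axis. Filled points passed the test, 7 genes in WT and 6 in *Ahr* HKO for the diets, 3 and 1 for the genotypes, and *Ugt2b1* (1.28) and *Ugt2b35* (0.81) for the difference.

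Whether the diet effect differed between the genotypes was tested by the interaction of genotype and diet in a fit of all 12 livers, called at an adjusted *P* value under 0.05. It passed for 2 of the 10 genes, both with a positive term, whereas 22.3% of all tested genes passed, 11.2% with a positive and 11.1% with a negative term. Of the genes that passed, 50.2% had a positive term, against 23% in limma on log2(FPKM + 1). At an unadjusted *P* under 0.05, 4 members had a positive and none a negative term, again without a share of all genes at that level. DESeq2 called 3 and none, against 1932 and 2045 of all 14038 tested genes. *Ugt2b1* had an interaction of 1.28 in log2 (SE 0.27, adjusted *P* = 0.00724), from a log2 FC of -0.23 in WT and 1.04 in *Ahr* HKO, and passed with any of the 12 livers omitted (1.09 to 1.42). *Ugt2b35* had an interaction of 0.81 (SE 0.25, adjusted *P* = 0.0371), from log2 FCs of 1.54 and 2.34. With 1 liver omitted it failed in 8 of 12 cases, with adjusted *P* values of up to 0.0866. It also failed in limma on log2(FPKM + 1) and on log2(FPKM + 0.1) (0.53 and 0.59, adjusted *P* = 0.117 and 0.121), and with the replicate number as a block (0.81, adjusted *P* = 0.0629).

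For the other 8 genes a difference between the diet effects did not pass in the fit of all livers. *Ugt2b5*, *Ugt2b36*, *Ugt2b34* and *Ugt2b38* had interactions of 0.52, 0.40, 0.33 and 0.25 (adjusted *P* = 0.0916, 0.145, 0.108 and 0.607), of which *Ugt2b34* passed in DESeq2 (0.32, adjusted *P* = 0.0482). The 4 *Ugt1a* genes had negative terms, -0.70 for *Ugt1a9* (interval -2.06 to 0.66, adjusted *P* = 0.448), -0.49 for *Ugt1a5*, -0.33 for *Ugt1a1* and -0.26 for *Ugt1a6a*. Without *Ahr* HKO ethanol replicate 1, the liver with the highest *Ugt1a5* level, the term of *Ugt1a5* was -1.99 and passed (adjusted *P* = 0.0447). The interval of *Ugt1a9* covers differences of either sign.

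The counts summed over a locus were compared in the same way. The 8 *Ugt1a* rows together were at 741, 610.2 and 593 CPM in WT control, 1771, 1360 and 1138 CPM in WT ethanol, 581, 419 and 593 CPM in *Ahr* HKO control and 1285, 947 and 966 CPM in *Ahr* HKO ethanol livers. Every ethanol liver was above every control liver of its genotype. The sum rose with ethanol by 1.15 in log2 FC in WT (SE 0.19, adjusted *P* = 0.0151) and by 1.00 in *Ahr* HKO (SE 0.20, adjusted *P* = 0.011), and the WT call was lost without WT control replicate 2 (adjusted *P* = 0.0649) or 3 (adjusted *P* = 0.0632). Between the genotypes the sum did not pass on either diet (log2 FC -0.28 and -0.42, adjusted *P* = 0.261 and 0.273), nor did the interaction (-0.13, adjusted *P* = 0.783).

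The 7 *Ugt2b* rows together were at 1750, 1558 and 1335 CPM in WT control, 2363, 2458 and 2589 CPM in WT ethanol, 939, 1041 and 1063 CPM in *Ahr* HKO control and 2164, 2292 and 2340 CPM in *Ahr* HKO ethanol livers. The 4 groups did not overlap, with *Ahr* HKO control livers lowest. The log2 FC with ethanol was 0.69 in WT (SE 0.14, adjusted *P* = 0.0312) and 1.16 in *Ahr* HKO (SE 0.13, adjusted *P* = 0.00237). On the control diet *Ahr* HKO was lower, with -0.61 in log2 FC (SE 0.15, adjusted *P* = 0.0208), and on the ethanol diet the difference of -0.12 did not pass (adjusted *P* = 0.557). The WT diet call was lost whichever of the 6 livers was omitted (adjusted *P* = 0.051 to 0.105), the genotype call without WT control replicate 1 or 2 or *Ahr* HKO control replicate 1 (adjusted *P* = 0.0586, 0.0678 and 0.0681), and the call in *Ahr* HKO in none. The interaction was 0.48 (SE 0.18, adjusted *P* = 0.0682), and DESeq2 called it (adjusted *P* = 0.0135).

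Within the *Ugt1a* locus, *Ugt1a9* made up 2.31% ± 0.59 of the summed *Ugt1a* FPKM in WT control and 14.2% ± 3.99 in WT ethanol livers, and 2.25% ± 1.20 and 8.72% ± 2.14 in *Ahr* HKO livers (SD, n = 3), and the shares of the diets did not overlap in either genotype. *Ugt1a1* held 39.1% to 43.9% of the summed FPKM as the mean of each group, without a clear order. *Ugt1a6b* held the other large share, 42.1% ± 3.04 in WT control and 29.0% ± 5.22 in WT ethanol livers, without overlap, and 35.8% ± 11.8 and 38.8% ± 7.17 in *Ahr* HKO control and ethanol livers, with overlap. These shares depend on the lengths behind FPKM. The RefSeq gene of *Ugt1a6b* ends at 88218998, those of the other *Ugt1a* genes at 88220002. By CPM *Ugt1a6b* was below *Ugt1a1* in each group, with means of 219 against 302 in WT control and 314 against 684 in WT ethanol livers. In *Ahr* HKO the means were 146 against 262 in control and 324 against 471 in ethanol livers. In the *Ugt2b* cluster, *Ugt2b5* held 31.1% to 36.9% and *Ugt2b36* 24.9% to 27.1% as group means. *Ugt2b1* held 16.8% ± 0.98 in WT control, 9.13% ± 0.617 in WT ethanol, 17.9% ± 3.66 in *Ahr* HKO control and 17.0% ± 1.92 in *Ahr* HKO ethanol livers, so that the WT ethanol livers stood below all others.

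**Figure D4:**
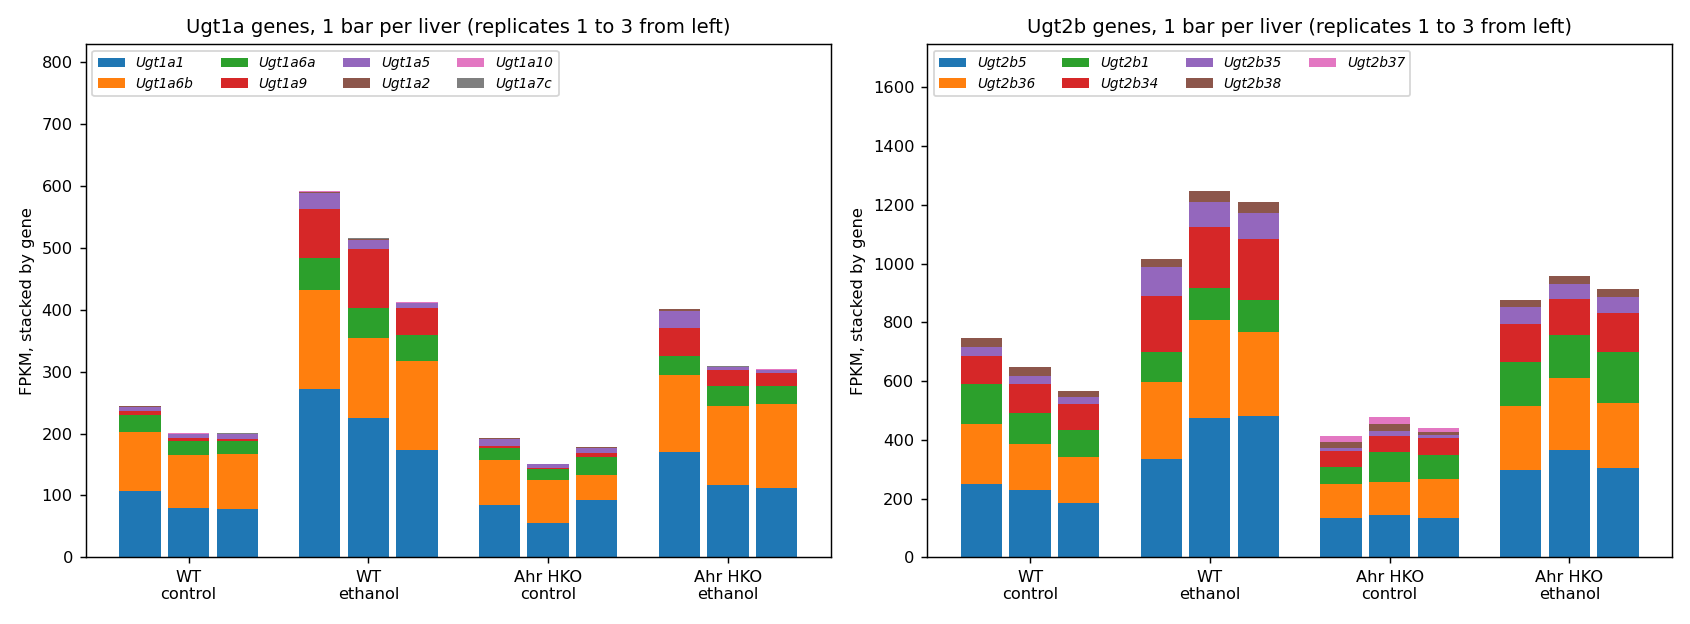
FPKM of the *Ugt1a* genes (left) and *Ugt2b* genes (right) stacked by gene, with a bar for each of the 12 livers. *Ugt1a9* widens from a mean of 2.31% to 14.2% of the *Ugt1a* bar in WT with ethanol, and *Ugt2b37* is visible in the *Ahr* HKO control livers, at a mean of 4.30% of the *Ugt2b* bar.

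Other *Ugt* genes of the table were followed as a list of 12, of which 11 were in the table and 9 were tested. *Ugt2a1* and *Ugt2a2* had no count in any library. For the diets, none of the 9 passed in WT in edgeR (median log2 FC 0.44), where 3 were higher and 1 was lower at an unadjusted *P* under 0.05 and DESeq2 called 1, and in *Ahr* HKO 2 rose and 1 fell (median 0.72). Between the genotypes, 1 was higher in *Ahr* HKO on the control diet (median -0.32). On the ethanol diet none passed in edgeR (median 0.08), with 2 at an unadjusted *P* under 0.05 and 1 in DESeq2. *Ugt1a6b* rose in *Ahr* HKO from 175, 159 and 104 CPM to 307, 316 and 348 CPM, which is 1.15 in log2 FC (SE 0.20, adjusted *P* = 0.00682). Its neighbour *Ugt1a6a* summed with it rose by 0.98 in *Ahr* HKO (adjusted *P* = 0.00264) and by 0.63 in WT (adjusted *P* = 0.0294). In *Ahr* HKO control replicate 3 *Ugt1a6b* had 0.969 times the counts of *Ugt1a6a*, against 1.84 to 3.12 times in the other 11 livers. *Ugt1a7c*, at under 3 CPM throughout, rose in *Ahr* HKO (log2 FC 1.21, adjusted *P* = 0.0478). *Ugt3a1*, whose human counterpart uses a different sugar nucleotide, passed for the interaction (0.76, adjusted *P* = 0.0496).

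*Ugt2b37* (Entrez 112417, chr5:87240492-87254788, minus strand) stood apart. It was read at 41.7, 45.2 and 24.3 CPM in *Ahr* HKO control livers and at 1.74 to 4.28 CPM in the other 9 livers. It was higher in *Ahr* HKO than in WT on the control diet (log2 FC 3.46, SE 0.30, adjusted *P* = 0.000912), fell with ethanol in *Ahr* HKO by 3.71 in log2 FC (SE 0.35, adjusted *P* = 0.00149), and had an interaction of -3.37 (SE 0.53, adjusted *P* = 0.00202). In the 3 *Ahr* HKO control livers the count of *Ugt2b38* was 0.988 to 0.996 times that of *Ugt2b37*, whereas it was 12.4 to 28.0 times in the other 9 livers. The coding sequences of the pair differ at 94 of 1590 bases, and 1.06% of the 100-base windows of *Ugt2b38* occur in *Ugt2b37*. Why the counts were nearly equal in 1 group was not tested. When the rows were summed, an alternative chosen after the values were seen, the signs for *Ugt2b38* turned to 0.43 for the genotypes on the control diet, -0.47 for the diets in *Ahr* HKO and -0.65 for the interaction (adjusted *P* = 0.227, 0.143 and 0.16), none of which passed.

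**Figure D5:**
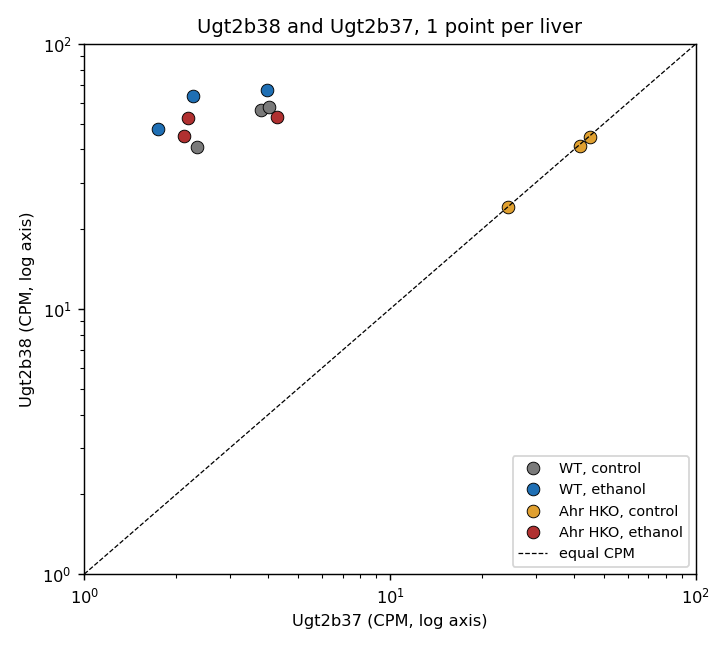
CPM of *Ugt2b38* against CPM of *Ugt2b37*, on log axes, with a point for each of the 12 livers and a dashed line at equal CPM. The 3 *Ahr* HKO control livers lie next to the line, at 24.3 to 45.2 CPM of *Ugt2b37*, and the other 9 lie far above it, at 1.74 to 4.28 CPM.

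Genes that make or use the cosubstrate UDP-glucuronic acid were taken as a list of 11, all tested. In WT, 2 rose with ethanol, *Ugp2*, which makes UDP-glucose, and *Ugdh*, which oxidizes it to UDP-glucuronic acid, and 2 fell, *Gulo* and *Rgn*, which lead from glucuronate to ascorbate (median log2 FC of the list 0.04). *Ugp2* went from 293, 202 and 197 CPM to 721, 703 and 705 CPM in WT and from 114, 132 and 163 CPM to 329, 384 and 274 CPM in *Ahr* HKO, with log2 FCs of 1.63 (SE 0.17, adjusted *P* = 0.00369) and 1.27 (SE 0.19, adjusted *P* = 0.00445). It was also lower in *Ahr* HKO on both diets, at -0.75 (adjusted *P* = 0.0286) and -1.11 (adjusted *P* = 0.0294). *Ugdh* behaved differently between the genotypes. It went from 102, 85.0 and 86.1 CPM to 216, 205 and 222 CPM in WT (log2 FC 1.25, SE 0.10, adjusted *P* = 0.00184), was at 149, 174 and 202 CPM in *Ahr* HKO control and at 136, 150.4 and 145 CPM in *Ahr* HKO ethanol livers, and had an interaction of -1.52 (SE 0.17, adjusted *P* = 0.000353).

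In *Ahr* HKO, 1 gene of that list rose with ethanol (*Ugp2*) and 3 fell, *Pgm1*, *Slc35d1* and *Uxs1* (median -0.08). *Slc35d1*, which carries UDP-glucuronic acid into the endoplasmic reticulum, had a log2 FC of -0.72 in *Ahr* HKO (SE 0.12, adjusted *P* = 0.00602) and an interaction of -1.26 (SE 0.20, adjusted *P* = 0.00203). Between the genotypes on the control diet 3 were higher and 1 was lower in *Ahr* HKO (median 0.09), and on the ethanol diet none was higher and 1 was lower (median -0.05).

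Of 8 transporters that move conjugates and organic anions, 3 rose in WT (median log2 FC 0.21), the basolateral exporters *Abcc3* and *Abcc4* and the uptake carrier *Slco1a4*, and 2 rose in *Ahr* HKO (median 0.56), *Abcc3* and *Abcc4*. *Abcc4* went from 2.03, 1.64 and 2.29 CPM to 105, 90.5 and 49.6 CPM in WT and from 3.59, 2.97 and 2.52 CPM to 11.3, 29.4 and 6.18 CPM in *Ahr* HKO, log2 FCs of 5.37 (SE 0.32, adjusted *P* = 0.000604) and 2.37 (SE 0.54, adjusted *P* = 0.0171) that differed between the genotypes (interaction -2.99, SE 0.68, adjusted *P* = 0.0108). *Abcc3* had log2 FCs of 1.54 and 1.11 (adjusted *P* = 0.0161 and 0.0067). The uptake carrier *Slco1a1* was read at 452, 332 and 251 CPM in WT control and at 0.680, 0.954 and 22.9 CPM in WT ethanol livers, without overlap, but its log2 FC of -5.38 (SE 1.35, adjusted *P* = 0.0506) did not pass, whereas its interaction of 5.58 did (adjusted *P* = 0.0165). No transporter fell with ethanol in WT in edgeR, 2 were lower at an unadjusted *P* under 0.05, and DESeq2 called 1 as lower. On the control diet *Slco1a1* and *Slco1b2* were lower in *Ahr* HKO (log2 FC -0.85 and -0.78, adjusted *P* = 0.0414 and 0.00584, median of the list -0.50), and on the ethanol diet none passed in edgeR (median -0.26), where 2 were higher and 4 lower at an unadjusted *P* under 0.05 and DESeq2 called 2.

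Of 14 regulators of *Ugt* genes, 2 rose with ethanol in WT (median log2 FC 0.13), *Nr1i3*, which encodes CAR, and *Nfe2l2*, which encodes NRF2. In *Ahr* HKO, *Nr1i3* rose and *Ahr* and its partner *Arnt* fell (median -0.25). *Nr1i3* had log2 FCs of 0.74 in WT and 1.03 in *Ahr* HKO (adjusted *P* = 0.00802 and 0.0108) and was lower in *Ahr* HKO on the control diet (-0.63, adjusted *P* = 0.0473). There, *Ahr* and *Hnf4a* were higher (median 0.16), and on the ethanol diet none of the 14 passed in edgeR (median -0.03), where 3 were higher and 2 lower at an unadjusted *P* under 0.05 and DESeq2 called 0. Of 13 tested target genes of these receptors, taken from a list of 14, 7 rose in WT and 7 in *Ahr* HKO (medians 1.85 and 1.72). *Nqo1*, a target of NRF2 and AhR, had log2 FCs of 3.23 and 2.45 (adjusted *P* = 0.00203 and 0.00294), and *Cyp2b10*, the reference target of CAR, was at 0.262, 0 and 0 CPM in WT control and 408, 46.8 and 94.5 CPM in WT ethanol livers. On the control diet *Cyp1a1* and *Gclc* were higher and *Cyp1a2* was lower in *Ahr* HKO (median 0.89), and on the ethanol diet *Cyp1a2* was lower (median -0.08). The interaction passed for 1 of the 11 supply genes upwards and 3 downwards, and for 3 of the 8 transporters upwards and 1 downwards. It passed downwards for 2 of the 14 regulators, *Ahr* and *Arnt*, and 2 of the 13 targets, *Gclc* and *Gsta1*. Of all tested genes 22.3% passed, 11.2% upwards and 11.1% downwards.

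The genes outside the family with the most similar pattern were looked up for the 3 members whose group means ranged most widely, by Pearson's r of log2 CPM over the 12 livers, as a description. All livers of a group share their diet and genotype, so a high r mostly reflects the 4 group means. *Ugt1a9*, with a range of 4.12 in log2 CPM between group means, was most like *Pcsk6* (r = 0.981), *Gstm1* (0.979) and *Gstm3* (0.978). *Ugt2b35*, with a range of 2.83, was most like *Slc6a13* (0.985), *Cebpe* (0.975) and *Entpd5* (0.973), and *Ugt2b34*, with a range of 1.70, was most like *9130409I23Rik* (0.988), *Adi1* (0.974) and *Slc6a13* (0.974).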

How the data were processed

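Polyadenylated RNA of 12 livers was made into stranded libraries, and groups were formed from the genotype, diet and replicate number in the library labels. The authors deposited whole-number read counts per gene, FPKM (counts scaled by the authors to gene length and library size) and TPM (a further scaling, used only to check that its sums were 924962 to 987569 per library). The submitters' processing notes name the build mm10 and FastQC 0.11.7, Trimmomatic 0.38, HISAT2 2.1.0, Bowtie2 2.3.4.1 and StringTie 1.3.4d without their roles. How reads in common between genes were divided is not given in the sources used here. The libraries carry no molecular identifiers, so depth limits cover counting error only. No pair of the 66 library pairs was identical, and replicates differed by 68.0 to 310 in chi-square per degree of freedom over 12317 genes, far more than sampling noise.

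Counts were tested with edgeR 4.0.16 in R 4.3.3: filterByExpr over the 4 groups, TMM factors (0.925 to 1.16 over all libraries), and the quasi-likelihood test with the 6 libraries of a comparison, or all 12 for the interaction. Adjustment (Benjamini-Hochberg) ran over all 14038 genes. The SE is the absolute log2 FC divided by the square root of the quasi-likelihood F. To pass, a gene needed an adjusted *P* below 0.05 and, except for the interaction, an FC of more than 1.5. Shares of all tested genes were taken for this rule and for groups that did not overlap, and not at an unadjusted *P*. The code was tested on simulated data with known changes. Transcripts were taken from GENCODE M21 and promoters from RefSeq (GRCm38.p6), and read with Biopython 1.88. Figures were drawn with matplotlib 3.10.9. Alternatives were DESeq2 1.42.0, limma 3.58.1 on log2(FPKM + 1), quantile-normalized or as deposited, and on log2(FPKM + 0.1), upper-quartile scaling, other filters on low counts, a single fit of all libraries, the replicate number as a block, the thresholds of the study, and each library left out.

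The genes named are the 10 members, at most 8 genes that passed in each other list, *Ahr*, and the 3 genes outside the family with the highest Pearson's r to each of the 3 members with the widest range of group means. *Alb*, *Spp1* and the levels of *Cyp1a1*, *Cyp1a2* and *Cyp2b10* were added after their values were seen. The lists were other *Ugt* genes, UDP-glucuronic acid supply, conjugate transporters, regulators of *Ugt* genes, reference targets of the receptors, and markers of 5 cell classes. The members and lists were chosen with earlier results of these data known. A withheld item is not reported here.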

Additional observations from a re-analysis of the deposited data

Results flagged for a closer look

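The diet effect on *Ugt2b1* differed between the genotypes in the test of the interaction, by 1.28 in log2 FC (95% interval 0.69 to 1.86, adjusted *P* = 0.00724, edgeR). Its log2 FC with ethanol was -0.23 in WT and 1.04 in *Ahr* HKO livers. The diet effect on *Ugt2b35* differed by 0.81 in log2 FC (adjusted *P* = 0.0371), with log2 FCs of 1.54 in WT and 2.34 in *Ahr* HKO livers, and this call was lost in 8 of 12 fits that left out a liver. Single livers were not screened for outliers, because groups of 3 are too small for that test.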

How the results depend on the processing

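Of 455 values of the 10 genes under alternatives other than leaving out a library, 427 kept their direction and their side of the threshold, 10 lost a call, 13 gained a call and 5 changed sign, and of 360 values with a library left out these numbers were 316, 28, 5 and 11. The 5 sign changes were -0.034 for *Ugt1a5* with ethanol in *Ahr* HKO (limma on log2(FPKM + 0.1)), 0.43, -0.47 and -0.65 for *Ugt2b38* summed with *Ugt2b37* (genotypes on the control diet, diets in *Ahr* HKO, interaction), and 0.36 for *Ugt1a6a* summed with *Ugt1a6b* (interaction). The summed pairs were chosen after the data were seen. Causes of these changes were not tested.

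The number of members that passed between the genotypes on the ethanol diet, 1, became 2 in DESeq2, 0 in limma on quantile-normalized log2(FPKM + 1) and 2 in limma on log2(FPKM + 1), and the number for the interaction, 2, became 1 in limma on log2(FPKM + 1) and on log2(FPKM + 0.1), where *Ugt2b35* was lost. Of all genes, 949 passed with ethanol in WT, against 1440 in DESeq2 and 1982 at the threshold of the study (adjusted *P* under 0.25). Between the genotypes on the control diet 2788 passed, against 1772 and 1718 in limma with and without quantile normalization, and with ethanol in *Ahr* HKO 3090 passed, against 1760 and 1859. Between the genotypes on the ethanol diet 149 passed, against 1044 in DESeq2, 429 in a single fit of all 12 libraries, 93 and 260 in limma, and 860 at the threshold of the study (unadjusted *P* under 0.05 and FC above 2). The call of the *Ugt2b* sum on the control diet was lost in limma at -0.58, -0.55 and -0.55 (adjusted *P* = 0.0304, 0.0172 and 0.0311), because these are under the minimum FC. The interaction of that sum was gained in DESeq2 at 0.48.

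Another scaling moved the share of higher among called genes from 49.7% to 76% with ethanol in WT (limma on log2(FPKM + 1)), from 64.4% to 39.9% in DESeq2 and 25.8% in limma between the genotypes on the ethanol diet, from 49.2% to 39.4% with upper-quartile scaling on the control diet, and from 50.2% to 23% for the interaction (limma on log2(FPKM + 1)). On log2(FPKM + 1) the median of all genes lay at -0.13 between the genotypes on the ethanol diet and at -0.14 for the interaction.

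Same-numbered livers of different groups correlated in their deviations at -0.09 to 0.18, over 0.1 in 2 of 18 pairs. Both of these joined WT and *Ahr* HKO ethanol livers, at 0.18 for replicate 1 and 0.13 for replicate 2. Such weak correlations show no clear pairing by replicate number but cannot exclude a shared litter or batch. With the replicate number as a block, 503 genes passed with ethanol in WT and 243 between the genotypes on the ethanol diet, 1 member passed for the interaction, *Ugt2b5* (0.79, adjusted *P* = 0.0901) and *Ugt2b36* (0.62, adjusted *P* = 0.0885) lost their calls with ethanol in WT, *Ugt2b35* lost that of the interaction (0.81, adjusted *P* = 0.0629), *Ugt1a1* gained a call with ethanol in *Ahr* HKO (0.87, adjusted *P* = 0.0493), and the *Ugt2b* sum lost its calls with ethanol in WT (0.70, adjusted *P* = 0.0794) and on the control diet (-0.60, adjusted *P* = 0.0762).

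With each library left out, 366 to 841 genes and 3 to 6 members passed with ethanol in WT, 7 to 189 genes and 0 members between the genotypes on the ethanol diet, and 1 to 2 members for the interaction. The *Ugt1a* sum ranged from 0.94 to 1.29 in WT and from -0.29 to 0.059 for the interaction, and the *Ugt2b* sum from 0.59 to 0.79 in WT, -0.71 to -0.51 on the control diet and 0.39 to 0.58 for the interaction. Values that changed sign were those of *Ugt1a1* (-0.40 to 0.026), *Ugt1a5* (-0.086 to 0.49) and *Ugt1a6a* (-0.41 to 0.087) on the control diet, of *Ugt1a5* between the genotypes on ethanol (-1.73 to 0.34) and with ethanol in *Ahr* HKO (-0.93 to 1.00), and of *Ugt1a5* (-1.99 to 0.10) and *Ugt1a6a* (-0.44 to 0.050) for the interaction.

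With 3 livers a group, the spread between livers and not depth limits these results, since 3 counts amount to 0.0425 to 0.0676 CPM. Counts per gene do not tell first exons of the *Ugt1a* locus apart beyond the unstated division of common reads.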
